A study of Mus musculus with 2 samples.

Results

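Total RNA-seq of the mouse adrenal gland was examined for 9 genes of the output side of the circadian clock: Dbp, Tef, Hlf, Nfil3, Ciart, Bhlhe40, Bhlhe41, Rora and Csnk1e. They were taken by gene symbol from the 55536 genes of the annotation (GENCODE M21, build mm10), and all 9 were found. The tissue came from 36-day-old males of B6CASTF1/J, a cross whose F1 animals have a C57BL/6J and a CAST/EiJ parent, and the labels name no treatment. The samples form 1 group of 2 biological replicates, each from 300 ng of RNA with ERCC spike-in RNA (synthetic transcripts added in a known amount). The series therefore holds no contrast between conditions, and each comparison of replicate 2 with replicate 1 is between 2 libraries. The labels conflict on the animals: by the biosample descriptions they differ between the libraries, and by the library descriptions they are the same, so the spread between the libraries may be partly technical. The labels used here give no hour of collection.

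The circadian clock is a feedback loop in which CLOCK and ARNTL bind E-box sequences and switch on the genes of their own repressors, the PER and CRY proteins. Rhythm passes from this loop to other genes through transcription factors that the loop drives: the PAR bZIP activators DBP, TEF and HLF and the bZIP repressor NFIL3 share the D-box, BHLHE40, BHLHE41 and CIART repress at E-boxes, and RORA activates at ROR elements that the REV-ERB repressors also bind. Casein kinase 1 epsilon, the product of Csnk1e, phosphorylates PER proteins. The adrenal gland is a clock tissue, and its glucocorticoid output is rhythmic.

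The gene tables held 35511291 expected counts (reads assigned to genes by the authors' model) in replicate 1 and 30169338 in replicate 2. Levels are given as TPM, transcript abundance corrected for transcript length and brought to a common total. Nuclear protein-coding genes took 31.05% of TPM in replicate 1 and 23.24% in replicate 2, so a gene with the same share of coding RNA in both libraries has a lower deposited TPM in replicate 2. Markers of the adrenal cortex (summed TPM 16123 and 8842) and of chromaffin cells (1450 and 1699) were present in both libraries. By counts under the TMM scaling described below, all 8 cortex genes were lower in replicate 2 (median log2 ratio of replicate 2 over replicate 1 -0.42). Of these, 1 passed the thresholds given below, Nr5a1. All 7 chromaffin genes were higher in replicate 2 (median 0.52), and none passed. Markers of acinar pancreas (summed TPM 2.04 and 6774) and liver (14.6 and 128) were far higher in replicate 2, where 6 of 6 genes of either list passed. Pnlip and Cpa1 of the pancreas list were at 0 counts in replicate 1. Erythroid (3174 and 1358, 1 of 5 passing) and macrophage markers (122 and 72.9, none of 6 passing) were higher in replicate 1. Adipocyte markers were similar in summed deposited TPM (1005 and 991). By TMM-scaled counts 4 of these 6 genes were higher in replicate 2 and 2 were lower (median log2 ratio 0.65). The 2 that passed, Ucp1 and Elovl3, were both higher in replicate 2. In bulk tissue, fewer cells of a type and less RNA per cell cannot be told apart.

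Of the 9 genes, 8 exceeded 1 TPM in both libraries. Dbp had the highest mean level, at 35.7 ± 2.80 TPM (mean ± SD over the libraries, n = 2; the following levels are given likewise), which placed it at rank 1375 of 22015 nuclear protein-coding genes. Bhlhe40 followed at 28.3 ± 10.5 TPM, Csnk1e at 24.3 ± 6.58, Tef at 22.4 ± 5.37 and Rora at 16.2 ± 1.13. Nfil3 averaged 13.5 ± 16.3 TPM, an SD larger than its mean. The low group was Bhlhe41 at 3.83 ± 0.191 TPM, Hlf at 3.36 ± 0.495 and Ciart at 0.935 ± 0.0636, the last at rank 12089. Between neighbours in this order the library values overlapped everywhere except between Tef and Rora and between Hlf and Ciart. The second transcript file of the authors gave higher TPM for all 9 genes. There Csnk1e, at 71.2 ± 8.36 TPM, stood above Dbp, at 67.2 ± 9.51, by mean: it was higher in replicate 1 (77.1 against 60.5) and lower in replicate 2 (65.2 against 73.9).

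**Figure D1:**
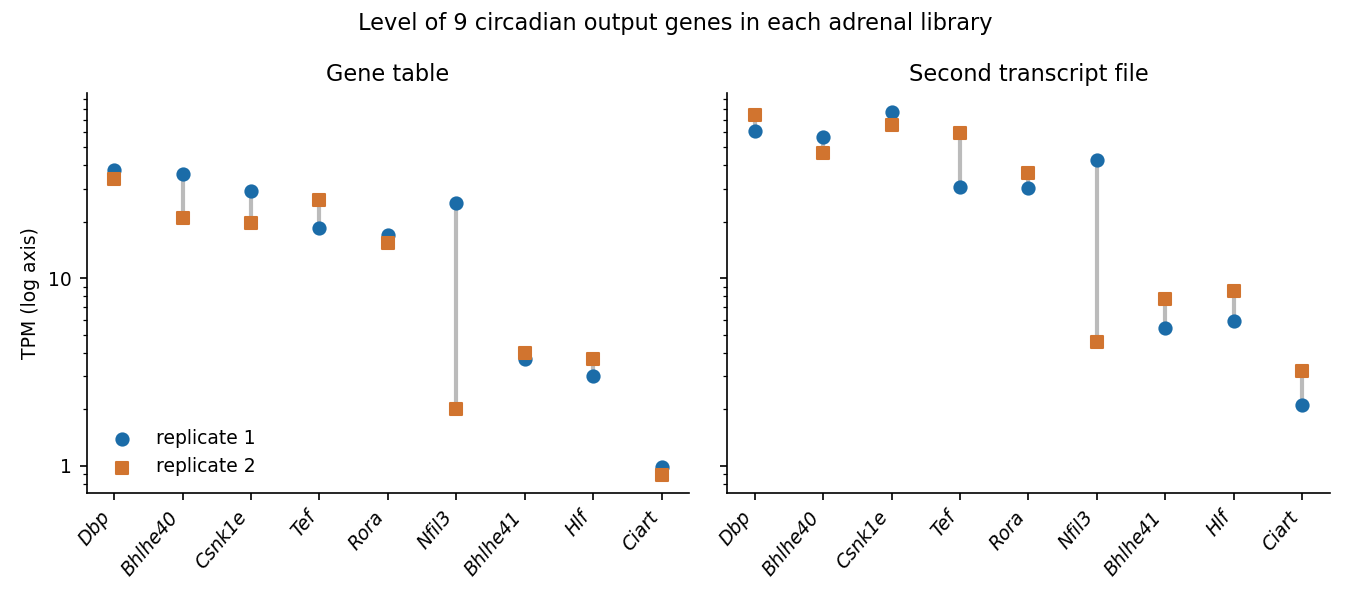
TPM of the 9 genes (log axis) in replicate 1 (circles) and replicate 2 (squares), from the gene tables at left and the second transcript file at right, ordered by the mean of the gene tables. Nfil3 shows the widest gap, 25.09 against 2.00 TPM in the gene tables and 42.8 against 4.57 in the second file.

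To compare the libraries, counts were scaled by TMM (a factor that sets most genes at no change) and each gene with a mean CPM (counts scaled to a common library size) of at least 1 was tested. A gene passed with an adjusted p under 0.05 (two-sided exact binomial test, Benjamini-Hochberg adjustment) and a ratio of at least 2-fold. All 9 genes were tested and 1 of them, Nfil3, passed, where 6.87% of the 14780 genes tested did and 1.74% passed toward replicate 1. At any fold, 8 of the 9 had an adjusted p under 0.05, all but Rora, beside 54.6% of all genes. This test knows counting error only. When a biological coefficient of variation of 0.1 was assumed in the exact test of edgeR, 3 of the 9 (Tef, Hlf and Nfil3) had an adjusted p under 0.05, beside 11.8% of all genes. With a 1.5-fold threshold, 4 of the 9 passed (Tef, Hlf, Nfil3 and Ciart), beside 16.6% of all genes. The median log2 ratio of replicate 2 over replicate 1 was 0.34 for the 9 genes and 0.01 for all genes tested, with 5 of the 9 higher in replicate 2 and 4 in replicate 1. Scaling by the spike-ins lowered every log2 ratio by the same amount, moved the median of all genes to -0.88 and that of the 9 genes to -0.55, and let 3 of the 9 pass (Nfil3, Bhlhe40 and Csnk1e) beside 37.3% of all genes. Directions below hold for TMM scaling, and each reversal of 1 of the 9 genes under spike-in scaling is named.

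**Figure D2:**
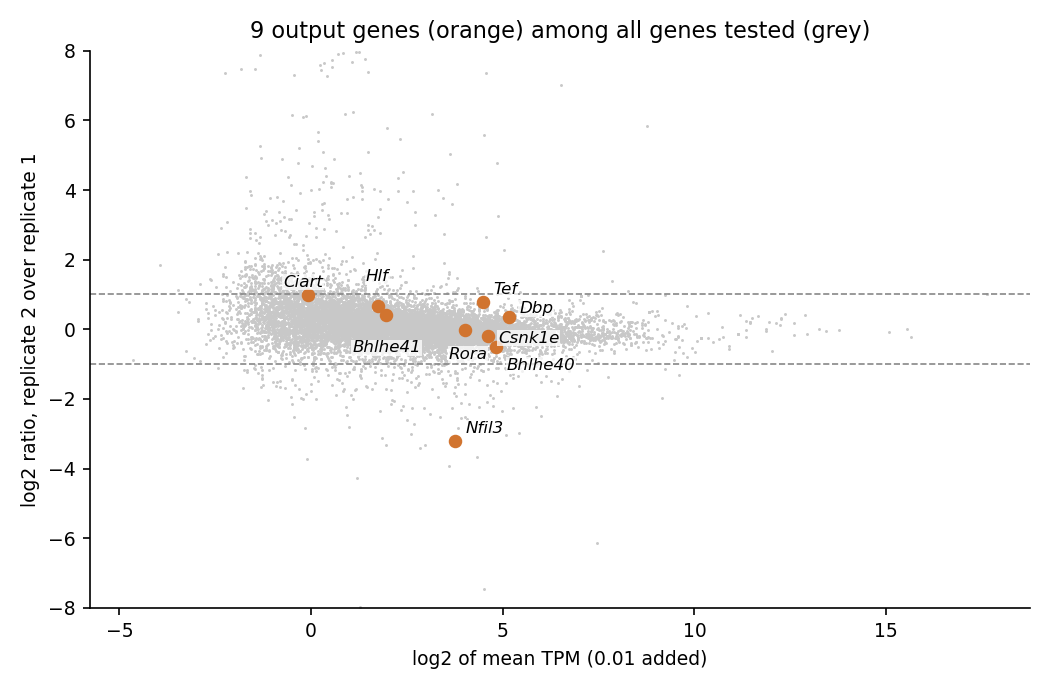
Log2 ratio of replicate 2 over replicate 1 (vertical, TMM scaling) against log2 mean TPM (horizontal, 0.01 added) for 14727 genes tested in grey, with the 9 output genes in orange and dashed lines at the 2-fold threshold. The 53 genes beyond a log2 ratio of 8 in size are not drawn. Nfil3, at -3.22, is the only orange point outside the lines, and Ciart lies just inside at 0.99.

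The sequence just before the start site was read for 8 of the 9 genes (all but Bhlhe40) from RefSeq windows of 300 bases (250 before and 50 after the start, build GRCm38.p6, which is mm10). They had 12 windows in all. Both strands were searched for 4 motifs: the E-box CACGTG, the D-box as TTATGTAA or TTACGTAA, the cAMP response element TGACGTCA and the ROR half-site TAGGTCA. Of 32851 windows in the table these were found in 7.15%, 1.06%, 1.79% and 2.61%, respectively. An E-box was found in 4 windows of 3 genes (Ciart, Tef and Bhlhe41), a cAMP response element in Hlf and a ROR half-site in Nfil3. The D-box letters were not in any of the 12 windows. No match overlapped another. A match is a description of the letters and not of binding. The sequences with an E-box or a cAMP response element are printed with their genes below, with the motif in capitals and only up to the first annotated exon.

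The 3 PAR bZIP activators stood at different levels and all had higher counts in replicate 2 under TMM scaling and lower ones under spike-in scaling. Dbp (ENSMUSG00000059824.12, chr7:45705088-45710203, plus strand) had 1987 counts in replicate 1 and 2061 in replicate 2. After scaling, replicate 2 was the higher by 1.27-fold, with an exact 95% interval of 1.19 to 1.35 (log2 ratio 0.34). This and the following intervals cover counting error only. Its deposited TPM went the other way, 37.69 in replicate 1 and 33.73 in replicate 2. Rescaled over nuclear protein-coding genes the values were 121 and 145 TPM, higher in replicate 2. Under spike-in scaling the log2 ratio of Dbp reversed to -0.55. Sphk2, on the opposite strand, shares 539 exon bases with Dbp and had 1138 and 941 counts. The library kit keeps strand, per the labels, but how the counting used it is not given in the sources used here.

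Tef (ENSMUSG00000022389.15, chr15:81802421-81826863, plus strand) had 18.55 TPM and 2105 counts in replicate 1 and 26.15 TPM and 2947 counts in replicate 2, with replicate 2 the higher by both measures. It was 1.71-fold higher in replicate 2 (1.62 to 1.81; adjusted p = 1.45e-78, exact binomial test), under the 2-fold threshold, and reversed to a log2 ratio of -0.12 under spike-in scaling. With the assumed coefficient of 0.1, the adjusted p of Tef was 0.00345 in the exact test of edgeR. Hlf (ENSMUSG00000003949.16, chr11:90336536-90390895, minus strand) had 539 and 696 counts and 3.01 and 3.71 TPM, again with replicate 2 the higher. Its scaled ratio was 1.58-fold (1.41 to 1.77; adjusted p = 1.29e-14, exact binomial test), and the log2 ratio turned from 0.66 to -0.24 under spike-in scaling. Within a library, which no scaling between libraries changes, the TPM of Dbp was 2.03 times that of Tef in replicate 1 and 1.29 times in replicate 2. Dbp over Hlf was 12.5 and 9.09. The order Dbp, Tef, Hlf was thus the same in both libraries, with Tef nearer to Dbp in replicate 2.

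Tef has 2 main coding transcripts with different start sites, and the library ratio differed between them. Tef-202 (285 residues) starts at the upstream site, chr15:81802421, and Tef-201 (301 residues) at the downstream site, chr15:81811414. Tef-201 had 7.57 TPM in replicate 1 and 7.72 in replicate 2, with deposited bounds of 6.56 to 8.36 and 6.59 to 8.51 that overlap. Tef-202 had 5.78 and 8.55 TPM, with bounds of 4.83 to 6.43 and 7.50 to 9.31 that do not. The bounds are on deposited TPM, which is lower in replicate 2 for a gene with an equal share of coding RNA. Overlap of bounds is therefore not equality of scaled counts, which are given below. The downstream transcript led in replicate 1 and the upstream one in replicate 2: Tef-202 over Tef-201 was 0.764 in replicate 1 and 1.11 in replicate 2. The second transcript file gave 0.776 and 1.18. Scaled counts of Tef-202 were 1.99-fold higher in replicate 2 and those of Tef-201 1.37-fold (1.96 and 1.29 in the second file). Under spike-in scaling the first file gave 1.07 and 0.737, so the direction of Tef-201 reverses with the scaling while the order of the pair does not. A retained-intron transcript that starts near the upstream site, Tef-203, was 2.58-fold higher in replicate 2 by TMM scaling (2.62-fold in the second file). For 2 other transcripts the size of this ratio depended on the file. The retained-intron Tef-207 was 1.48-fold higher in the first file and 2.65-fold in the second. The coding Tef-206 (106 residues) was 9.65-fold higher in the first, from 5.72 and 45.18 counts, and 1.48-fold in the second. These counts are model estimates over shared exons and were not tested.

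Both RefSeq windows of Tef held 1 E-box, counted back from base 1 before each RefSeq start site. The upstream E-box lay 127 to 122 bases before the RefSeq start chr15:81802673. That start is downstream of the start of Tef-202, chr15:81802421, so this E-box lies after the Tef-202 start and not before it. The downstream E-box lay 138 to 133 bases before the RefSeq start chr15:81811414, which is also the start of Tef-201. The upstream window lies inside the annotated first exon and is not printed. The printed downstream sequence, chr15:81811164-81811413 on the plus strand, ends at the base before the start of Tef-201. In Hlf, chr11:90390918-90391167 on the minus strand, the capitals mark the cAMP response element 9 to 2 bases before the RefSeq start.
Tef downstream start: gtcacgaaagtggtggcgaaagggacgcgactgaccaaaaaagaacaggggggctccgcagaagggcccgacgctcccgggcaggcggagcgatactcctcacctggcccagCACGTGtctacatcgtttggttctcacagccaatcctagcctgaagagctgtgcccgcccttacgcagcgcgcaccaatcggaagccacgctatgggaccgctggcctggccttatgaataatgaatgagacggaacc
Hlf: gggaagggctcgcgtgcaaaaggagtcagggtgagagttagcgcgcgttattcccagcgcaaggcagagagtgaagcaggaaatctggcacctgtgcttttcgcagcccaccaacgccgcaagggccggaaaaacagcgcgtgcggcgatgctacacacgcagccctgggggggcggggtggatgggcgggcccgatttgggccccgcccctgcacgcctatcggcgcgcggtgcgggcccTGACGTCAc

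The makeup of Dbp and Hlf was led by 1 transcript each. Dbp-201, which encodes the full protein of 325 residues, held 57.9% of the TPM of Dbp in replicate 1 and 64.3% in replicate 2 (74.7% and 77.4% in the second file). The shorter Dbp-204 (188 residues) held 31.1% and 19.7% in the first file but 10.5% and 5.75% in the second, so its share depends on the file, while both files had it lower in replicate 2. Retained-intron transcripts made up 11.0% and 13.2% of Dbp. Hlf-201 (295 residues) held 87.7% and 83.0% of Hlf, and 72.8% and 74.8% in the second file, where transcripts without a coding sequence took the remainder.

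Nfil3, the repressor that competes with the PAR bZIP factors for D-box sites, was the member that differed most between the libraries. The gene (ENSMUSG00000056749.7, chr13:52967209-52981073, minus strand) had 1708 counts and 25.09 TPM in replicate 1, and 150 counts and 2.00 TPM in replicate 2. Replicate 1 was 9.32-fold higher (7.89 to 11.1; adjusted p = 3.28e-269, exact binomial test; log2 ratio -3.22). The same gene passed under every scaling, filter and file tried, with log2 ratios of -3.25 in the second file and -4.11 under spike-in scaling. With the assumed coefficient of 0.1 its adjusted p was 4.23e-37 in the exact test of edgeR. Among the 9 genes Nfil3 took the fourth place by TPM in replicate 1 and the eighth in replicate 2. It has 1 annotated transcript, Nfil3-201, with 2 exons and 462 residues, and no other gene overlaps its exons. The ROR half-site, read as TGACCTA, lay 12 to 6 bases before its RefSeq start, inside the annotated first exon.

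Against Nfil3, the summed TPM of Dbp, Tef and Hlf was 2.36 times as high in replicate 1 and 31.8 times in replicate 2 (17.1 ± 20.8, SD, n = 2). The second file gave 2.26 and 31.1, and coding transcripts alone gave 2.02 and 26.3. This ratio is taken within each library and so does not depend on the scaling, and replicate 2 was far the higher in each of the 3. Tef and Nfil3 changed places: Nfil3 over Tef was 1.35 in replicate 1 and 0.0765 in replicate 2. Several other lists also lay toward replicate 1, among them all genes of the cortex (8), erythroid (5) and macrophage (6) marker lists. Over all genes tested, 1.74% passed toward replicate 1. Of 18 immediate early genes, which switch on within minutes of a stimulus, 16 were tested, all 16 had lower scaled counts in replicate 2, and 10 passed (median log2 ratio -1.34). The largest ratios were those of the nuclear receptor genes Nr4a1 (28730 and 335 counts, log2 ratio -6.13) and Nr4a2 (-3.93), the salt-inducible kinase gene Sik1 (-3.68) and Fosb (-3.31). Of 8 glucocorticoid-responsive genes, 3 passed, all higher in replicate 1: Errfi1 (-2.12), Per1 (-2.20) and Tsc22d3 (-1.11), with a list median of -0.92. The part of these genes, or of the pancreas and liver RNA in replicate 2, in the Nfil3 difference was not tested.

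**Figure D3:**
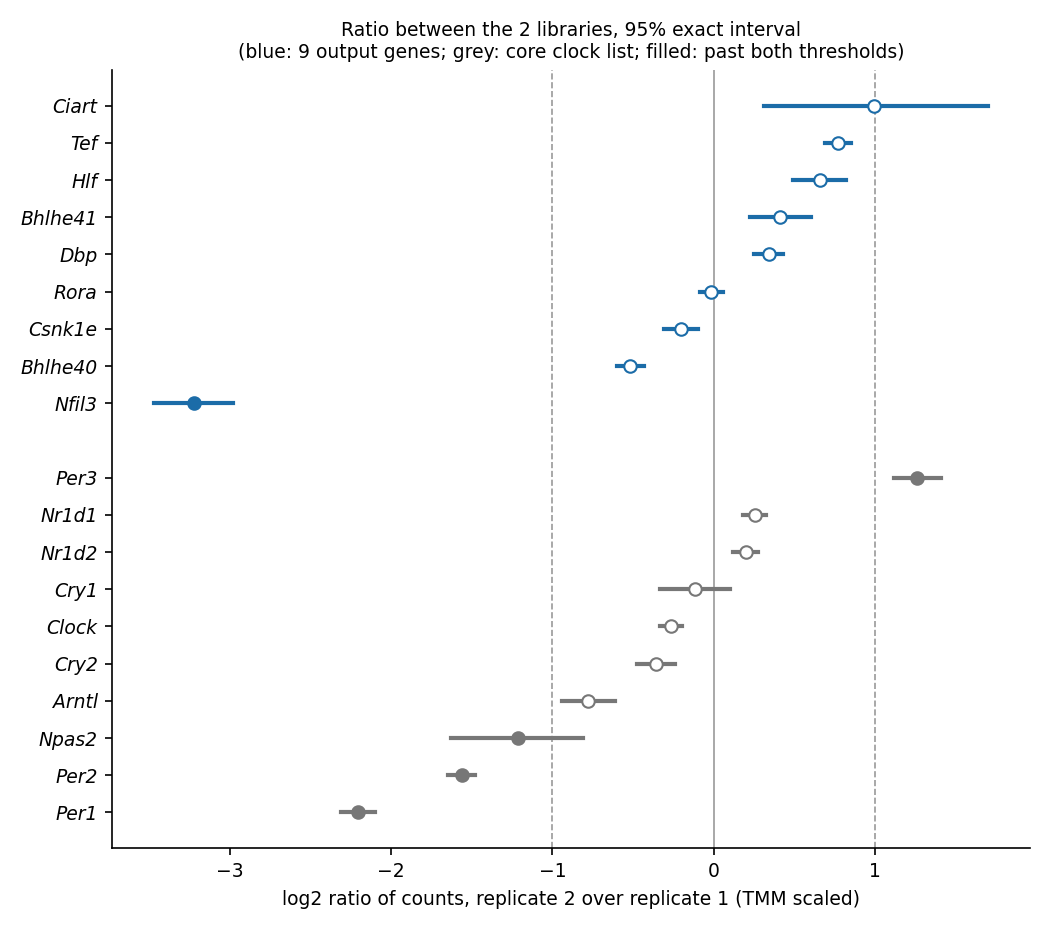
Log2 ratio of scaled counts, replicate 2 over replicate 1, with exact 95% intervals, for the 9 output genes (blue) and 10 tested genes of the core clock list (grey). Filled points passed both thresholds, and dashed lines mark 2-fold. Nfil3 lies at -3.22, Per1 at -2.20, Per2 at -1.56 and Npas2 at -1.20 toward replicate 1, and Per3 at 1.26 toward replicate 2. Under spike-in scaling all points move by the same amount to the left. This reverses Dbp, Tef, Hlf and Bhlhe41 of the output genes, and Nr1d1 and Nr1d2 of the core clock genes drawn.

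Of the E-box repressors, Bhlhe40 was the more abundant of the BHLHE pair. The pair lay on opposite sides of no change under TMM scaling, and both were lower in replicate 2 under spike-in scaling. Bhlhe40 (ENSMUSG00000030103.11, chr6:108660629-108666925, plus strand) had 3125 counts and 35.78 TPM in replicate 1 and 1788 counts and 20.89 TPM in replicate 2. It was 1.43-fold higher in replicate 1 (1.35 to 1.52; adjusted p = 3.35e-33, exact binomial test), under the 2-fold threshold, and among the settings tried it passed only with spike-in scaling, at a log2 ratio of -1.41. With the assumed coefficient of 0.1 the adjusted p was 0.0931 in the exact test of edgeR. Bhlhe41 (ENSMUSG00000030256.11, chr6:145858243-145865558, minus strand) had 448 and 489 counts and 3.70 and 3.97 TPM. It was 1.33-fold higher in replicate 2 (1.17 to 1.52; adjusted p = 4.33e-05, exact binomial test), which reversed to a log2 ratio of -0.48 under spike-in scaling. Bhlhe40 over Bhlhe41, within each library, was 9.67 in replicate 1 and 5.26 in replicate 2 (7.47 ± 3.12, SD, n = 2). The second file gave 10.4 and 5.94, so Bhlhe40 was several times more abundant in each library by either file, with the wider gap in replicate 1.

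The leading transcript of Bhlhe40 was Bhlhe40-201, which encodes 411 residues and held 76.7% of the TPM in replicate 1 and 66.3% in replicate 2 (77.7% and 65.0% in the second file). Its TMM-scaled count in replicate 2 was 0.677 of that in replicate 1, while the short Bhlhe40-202 (132 residues), with 71.5 and 86.0 counts, was 1.47-fold higher in replicate 2 by TMM and at 0.791 of replicate 1 by spike-in scaling. For Bhlhe41, Bhlhe41-201 (410 residues) held 51.6% and 46.9% in the first file and 59.5% and 55.3% in the second, and the remainder was almost all Bhlhe41-202, a coding fragment of 131 residues. Bhlhe41-202 had the larger share only in replicate 2 of the first file, at 53.1%. By counts, Bhlhe41-201 took nearly all of the gene, 407.5 and 436.2 of 448 and 489, since a short transcript reaches a given TPM with few reads. Gm43909, on the opposite strand, shares 1280 exon bases with Bhlhe41 and had 12 and 4 counts.

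Ciart, a repressor of the CLOCK and ARNTL complex, was the rarest of the 9 genes. The gene (ENSMUSG00000038550.10, chr3:95878503-95882251, minus strand) had 30 counts in replicate 1 and 49 in replicate 2, and 0.98 and 0.89 TPM. Its scaled counts were 1.99-fold higher in replicate 2 (1.24 to 3.25; adjusted p = 0.00701, exact binomial test), just under the 2-fold threshold. Under spike-in scaling the log2 ratio was 0.09 and not past the test (adjusted p = 0.83, exact binomial test). The TPM was lower in replicate 2 although the scaled counts were higher. Rescaled over nuclear protein-coding genes it was 3.16 and 3.83 TPM, and 2.09 and 3.20 in the second file, so replicate 2 was the higher in both of these. At this depth the transcripts of Ciart could not be ordered: Ciart-202, with the full 375 residues, held 22.2% of TPM in replicate 1 and 46.1% in replicate 2 from 14.0 and 29.1 counts.

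The window of Ciart held 3 E-boxes, where 0.0883% of all windows held at least 3 (29 of 32851). Those of Ciart lie 116 to 111, 58 to 53 and 44 to 39 bases before the RefSeq start, in chr3:95882252-95882478 on the minus strand. Bhlhe41 held 1 E-box, 153 to 148 bases before its RefSeq start, in chr6:145865559-145865670 on the minus strand. That start, chr6:145865420, is downstream of the start of Bhlhe41-201, chr6:145865558. The E-box thus lies before the Bhlhe41-201 start as well, and nearer to it. The sequences are shown because E-boxes are the sites these repressors and their activators act on, with the E-boxes in capitals.
Ciart: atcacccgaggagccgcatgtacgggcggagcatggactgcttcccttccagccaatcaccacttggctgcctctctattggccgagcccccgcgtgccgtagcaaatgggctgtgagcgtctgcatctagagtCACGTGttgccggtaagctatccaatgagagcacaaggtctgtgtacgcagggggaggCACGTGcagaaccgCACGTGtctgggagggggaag
Bhlhe41: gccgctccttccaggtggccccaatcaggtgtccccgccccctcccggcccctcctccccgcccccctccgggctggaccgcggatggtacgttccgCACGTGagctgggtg

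Rora, the orphan receptor that activates through ROR elements, had nearly equal counts between the libraries after TMM scaling (a log2 ratio of -0.91 under spike-in scaling) but a different transcript makeup. The gene (ENSMUSG00000032238.17, chr9:68653786-69388246, plus strand) had 3484 counts and 17.05 TPM in replicate 1 and 2827 counts and 15.45 TPM in replicate 2. The scaled ratio was 0.991 (0.943 to 1.04; log2 ratio -0.01; adjusted p = 0.792, exact binomial test).

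Of the 2 coding transcripts of Rora, Rora-201 (523 residues, 11 exons) starts at the upstream site, chr9:68653786, and Rora-202 (467 residues, 10 exons) at chr9:69289682. Rora-201 had 7.28 TPM in replicate 1 and 4.76 in replicate 2, with deposited bounds of 6.86 to 7.44 and 4.46 to 4.90 that do not overlap. Rora-202 had 7.12 and 6.40 TPM, with bounds of 6.04 to 7.63 and 5.57 to 6.87 that do. The bounds are again on deposited TPM, so whether they overlap does not carry over to scaled counts, which are given below. The upstream transcript over the downstream one was 1.02 in replicate 1 and 0.744 in replicate 2, and 1.03 and 0.732 in the second file. A transcript of 3 exons without a coding sequence that starts at the same base as Rora-201, Rora-204, went the other way. It had 69.7 and 214.8 counts and 8.74% and 27.1% of the TPM of Rora (12.7% and 29.2% in the second file). Its scaled counts were 3.76-fold higher in replicate 2 (2.72-fold in the second file), whereas those of Rora-201 were 0.878 and those of Rora-202 1.21 of the level in replicate 1. By spike-in scaling the 3 ratios were 2.03, 0.472 and 0.650. While the TMM-scaled total of the gene was nearly equal, the share without a coding sequence was larger in replicate 2 by both files. The RefSeq window at the upstream start held none of the 4 motifs.

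**Figure D4:**
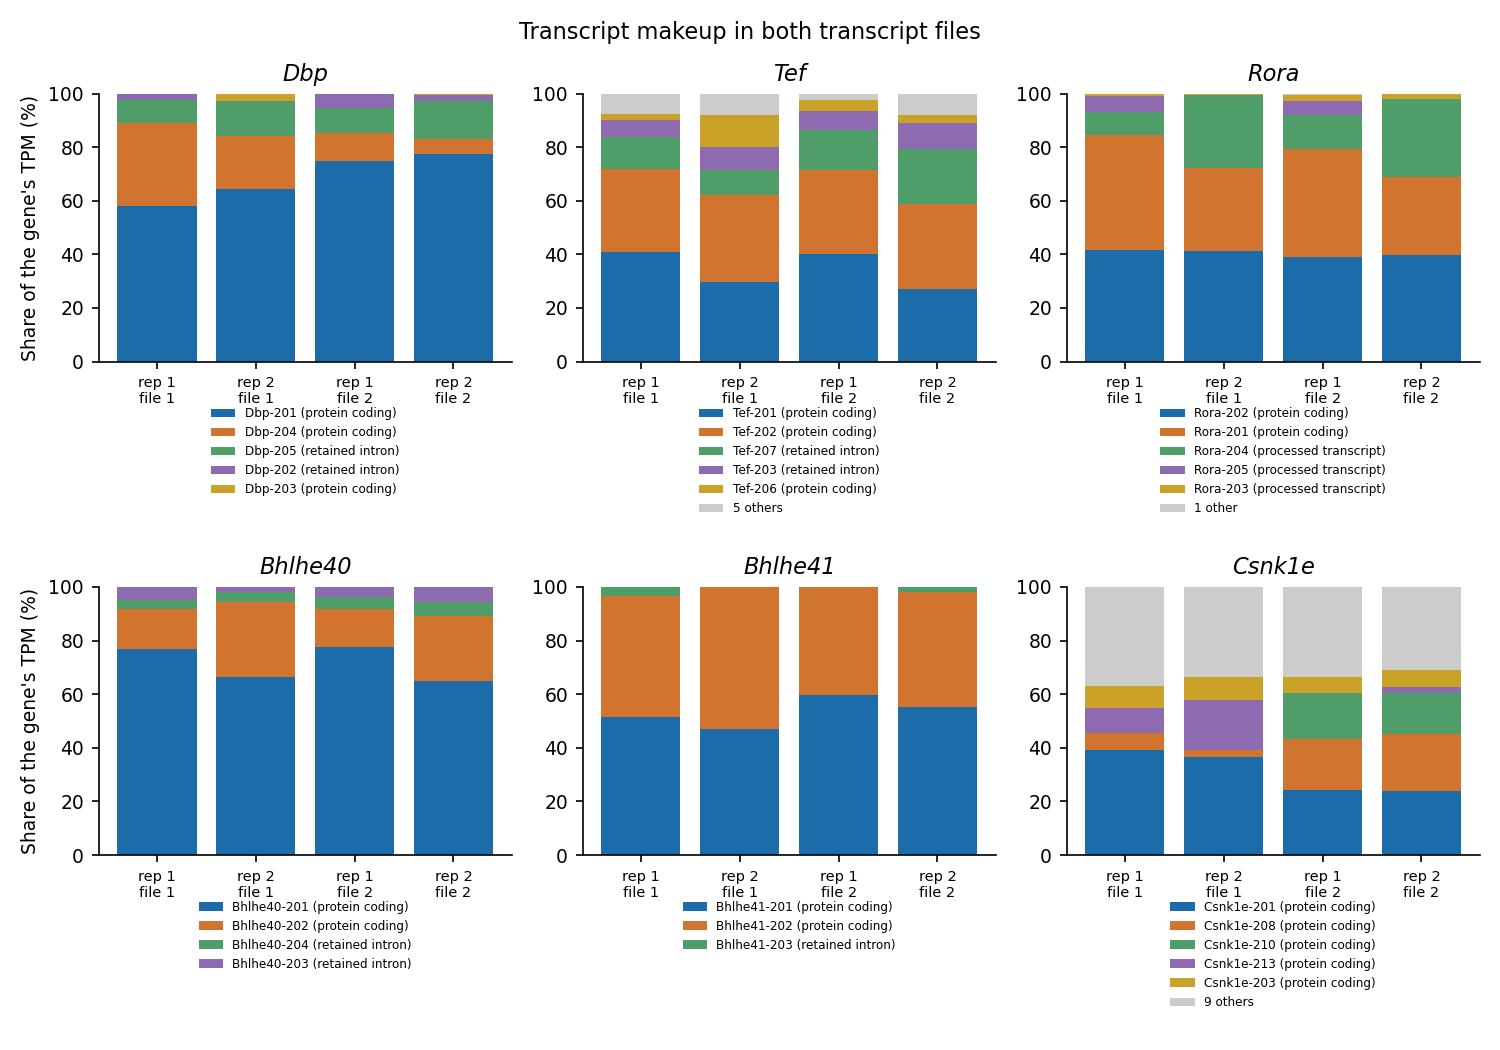
Share of a gene's TPM (vertical, percent) by annotated transcript for 6 of the 9 genes, in both libraries and both transcript files (file 1 and file 2). Transcripts with the largest mean shares are drawn singly, and any others of a gene together in grey. The Tef-201 band is thinner in replicate 2 than in replicate 1 in both files (40.8% and 29.5% in the first), and the Rora-204 band is thicker (8.74% and 27.1%). The Dbp-204 band is thinner in the second file (10.5% and 5.75%) than in the first (31.1% and 19.7%).

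Csnk1e (ENSMUSG00000022433.19, chr15:79417856-79455566, minus strand) had 1685 counts and 29.0 TPM in replicate 1 and 1200 counts and 19.69 TPM in replicate 2. It was 1.15-fold higher in replicate 1 (1.07 to 1.24; adjusted p = 0.000649, exact binomial test), and under spike-in scaling its log2 ratio of -1.09 passed the threshold. With the assumed coefficient of 0.1 the adjusted p was 0.671 in the exact test of edgeR. Its relative Csnk1d, which codes for casein kinase 1 delta, had 38.45 and 24.33 TPM, 1.33 and 1.24 times the level of Csnk1e. In the second file this order was not the same in both libraries, since the ratio was 1.12 in replicate 1 and 0.879 in replicate 2. Csnk1e has 14 annotated transcripts, and Csnk1e-201 (416 residues) held 39.0% and 36.5% of its TPM, but 24.4% and 24.0% in the second file. Csnk1e-210 (60 residues) stood at 0 in the first file and at 77.1 and 49.7 counts in the second, and Csnk1e-208 (141 residues) at 33.9 and 10.8 counts against 97.4 and 75.6. Retained-intron transcripts made up 23.7% and 27.8% of Csnk1e in the first file and 28.7% and 24.0% in the second. The direction between the libraries thus depends on the file.

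The 9 genes summed to 170.85 TPM in replicate 1 and 126.48 in replicate 2 (149 ± 31.4, SD, n = 2). Rescaled over nuclear protein-coding genes the sums were 550 and 544, and in the second file 311 and 306, so the gap seen in deposited TPM was not present in either of these. Of 12 core clock genes, 11 were tested and 4 passed, beside 6.87% of all genes tested. The list median was -0.27 beside 0.01 over all genes. Per1 (4908 and 872 counts), Per2 (5182 and 1437) and Npas2 (195 and 69) were higher in replicate 1, and Per3 (598 and 1176) was higher in replicate 2 by TMM scaling but did not pass under spike-in scaling. Nr1d1, the REV-ERB alpha gene, had 35.16 and 31.04 TPM, close to Dbp in both libraries: Dbp over Nr1d1 was 1.07 and 1.09. Nr1d2, the second REV-ERB gene, had 20.84 and 20.22 TPM. Of 11 clock kinase and ubiquitin enzyme genes, 1 passed, beside 6.87% of all genes tested. This was Usp2, a deubiquitinase gene with 1878 and 411 counts (log2 ratio -1.90), and the list median was -0.11. Csnk1a1 (61.7 ± 18.5 TPM) and Csnk2b (51.1 ± 17.2) led that list.

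Of 9 genes known as PAR bZIP targets in other tissues, 7 were tested and 4 passed, 1 toward replicate 1 and 3 toward replicate 2. Among all 14780 genes tested 6.87% passed, 257 genes toward replicate 1 and 758 toward replicate 2. Alas1, the first enzyme of heme synthesis, was higher in replicate 1 (34955 and 7360 counts, log2 ratio -1.96). Ppara, a nuclear receptor of fatty acid metabolism, was higher in replicate 2 (635 and 1132 counts, 1.12), as were the cytochrome P450 genes Cyp2b10 (76 and 201 counts, 1.69) and Cyp2a5 (1 and 191 counts). By spike-in scaling the ratios of Ppara and Cyp2b10 fell under 2-fold. Por, the P450 reductase, had a log2 ratio of -0.33 and did not reach 2-fold. The list median was 0.15. Liver also expresses Cyp2b10, Cyp2a5, Alas1 and Ppara, and the summed liver markers were 14.6 TPM in replicate 1 and 128 in replicate 2. The part of liver RNA in these values was not tested.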

How the data were processed

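RNA was purified from adrenal tissue with a column kit and made into directional, ribosomal RNA-depleted libraries, per the labels. Gene tables and a first transcript table hold expected counts and TPM that the authors deposited, in the column layout of RSEM. A second transcript file, in the column layout of kallisto, has the authors' estimated counts and TPM. The build is mm10, per the labels, and the programs are not given in the sources used. The authors' TPM covers all entries. The lower and upper TPM bounds were deposited by the authors. Spike-ins took 0.843% and 1.50% of counts, and 26345 entries that name no gene were left out of library sizes and tests.

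Expected counts were rounded (those of the 9 genes were whole within 0.005) and each gene was put to an exact binomial test (two-sided) of one library against the other, with TMM factors of edgeR 4.0.16 (1.02 and 0.982) in R 4.3.3, a mean CPM of at least 1, 0.5 added for log2 ratios, and Benjamini-Hochberg adjustment over 14780 genes. With 1 group of 2 libraries no quasi-likelihood fit of a contrast could be made, so p-values compare libraries and measure counting error only. Without molecular identifiers reads do not stand for independent molecules, so intervals cover counting error only. The procedure was tested on simulated counts with counting error only, the error that the test assumes. That check cannot tell how the test behaves with spread between libraries. Transcript shares were recomputed from TPM. Named were all 9 genes and, of each other list, up to 4 passing genes by size of the log2 ratio and up to 3 by mean TPM. Some list genes count in list totals and are not reported here by name. The genes and lists were chosen with earlier results of these data known. Alternatives were DESeq2 1.42.0 size factors, total and spike-in counts as scaling, other filters and thresholds, the second file, coding genes or transcripts only, the exact test of edgeR at an assumed coefficient of 0.1, 2 added to counts, genes at least 32-fold higher in replicate 2 left out, and each replicate left out. Tables and tests used scipy 1.17.1, pandas 2.3.3 and numpy 2.4.6 under Python 3.11.15, and figures matplotlib 3.10.9.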

Additional observations from a re-analysis of the deposited data

How the results depend on the processing

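Of 98 recomputed log2 ratios of single genes among the 9, 89 kept their direction and their outcome under the joint threshold on adjusted p and fold. With other filters, the lower fold threshold and the exact test of edgeR, the counts and TMM scaling were unchanged. The direction could not change in those settings, so the 98 are not separate checks of it. The adjusted p alone was under 0.05 for 8 of the 9 genes but for 3 in the exact test of edgeR at an assumed coefficient of 0.1, and that of Ciart was 0.83 under spike-in scaling (exact binomial test). The 4 reversals were under spike-in scaling: Dbp -0.55, Tef -0.12, Hlf -0.24 and Bhlhe41 -0.48. The other 5 newly passed: Bhlhe40 and Csnk1e under spike-in scaling, and Tef, Hlf and Ciart at 1.5-fold. The number of the 9 genes that passed was 1, but 3 under spike-in scaling and 4 at 1.5-fold, and that of core clock genes was 4, but 7 under spike-in scaling (without Per3), 5 at 1.5-fold and 3 at a mean CPM of at least 5 (without Npas2). The median log2 ratio of the 9 genes was 0.34, but -0.55 under spike-in scaling and 0.16 at a mean CPM of at least 5, where Ciart is not tested. Over all genes 1015 passed, but 5516 under spike-in scaling (237 higher in replicate 2, against 758), 2454 at 1.5-fold, 2116 with no filter and 346 at a mean CPM of at least 5. The summed TPM of the 9 genes was 149, but 547 rescaled over coding genes and 308 in the second file. With each replicate left out in turn it ranged from 126 to 171, the PAR bZIP sum over Nfil3 from 2.36 to 31.8, and Bhlhe40 over Bhlhe41 from 5.26 to 9.67. The cause of these shifts was not tested. Transcript values of Ciart are limited by its 30 and 49 counts. No paired analysis was possible because the 2 libraries form 1 group.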
